A study of Mus musculus with 81 samples.

Results

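VL30 elements are mouse retrotransposons of the endogenous retrovirus class ERV1. All annotated loci of the mouse long terminal repeat (LTR) elements whose repeat name begins with MMVL30, or with RLTR6 not followed by a digit, were taken from the deposited expression tables. This gave 3129 of 970384 LTR loci and 5 of 680 repeat species. The internal sequence RLTR6-int had 1209 loci, the internal sequence MMVL30-int had 951, and the LTRs RLTR6B_Mm, RLTR6_Mm and RLTR6C_Mm had 635, 232 and 102 loci. Of the 3129 loci, 2466 lay outside annotated genes, 563 in introns and 100 in exons. They occupied 21 chromosomes, with 408 loci on X and 362 on Y. A read was recorded at 2426 of them in at least 1 of 62 RNA libraries, and 703 had none.

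The libraries came from fetal testes of OG2 mice at E18.5. OG2 mice carry a transgene in which Pou5f1 (Oct4) regulatory sequence drives EGFP in germline cells. F0 dams drank water with 50 nM tributyltin (TBT) or with the DMSO vehicle, and fetal males of generations F1 and F3 were used, so that F1 fetuses developed in exposed dams and F3 fetuses descended from them. The EGFP-positive germline cells were split by side scatter into P4 and P5, and P6 held the EGFP-negative somatic cells. Polyadenylated RNA was profiled in 5 DMSO and 7 TBT libraries of F1 P4, 4 and 7 of F1 P5, 5 and 7 of F1 P6, and 4 and 5 of each F3 population. Methylated DNA captured with a methyl-CpG binding domain protein (MBD) was sequenced from P6 in 3 DMSO and 4 TBT libraries of F1 and 5 and 7 of F3. Numbers name the libraries, and the labels do not say whether 2 libraries of a group came from separate animals or litters, so p-values measure the spread between these libraries only.

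An intact VL30 element has an LTR at each end and an internal part between them. The LTR carries the promoter and the polyadenylation signal, so that RNA starts in the 5′ LTR and ends in the 3′ LTR. VL30 elements lack intact viral genes, and their RNA is known for being packaged into particles of murine leukemia viruses and copied by the enzymes of those viruses. A retrovirus begins DNA synthesis from a cellular tRNA that pairs with a primer binding site just behind the 5′ LTR. VL30 transcription is known to respond to growth factors and hormones through the LTR, while in germline cells retroelements are held down by DNA methylation and by small RNAs of the piRNA pathway. TBT binds the nuclear receptors RXR and PPARγ.

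The first 300 bases of 1 locus of each LTR species are given to show how the LTRs differ, on GRCm38/mm10 (RefSeq sequence) and in the orientation of the element. The RLTR6_Mm sequence is chr14:32115304-32115603 (plus strand), the 5′ LTR of the VL30 element with the highest mean level outside genes. The RLTR6C_Mm sequence is chr12:112017088-112017387 (minus strand), in an intron of Tdrd9, and the RLTR6B_Mm sequence is chr9:122855107-122855406 (plus strand), in an exon of Zfp445. Capitals mark AGAACA on either strand (TGTTCT in the printed strand), the half-site of steroid receptor elements, and AATAAA, the letters of a polyadenylation signal.
RLTR6_Mm: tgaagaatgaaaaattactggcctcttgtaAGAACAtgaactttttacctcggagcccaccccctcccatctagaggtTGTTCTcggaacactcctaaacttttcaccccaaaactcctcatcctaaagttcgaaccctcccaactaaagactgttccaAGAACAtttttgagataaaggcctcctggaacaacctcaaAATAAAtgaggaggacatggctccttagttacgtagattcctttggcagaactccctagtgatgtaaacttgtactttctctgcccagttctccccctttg
RLTR6C_Mm: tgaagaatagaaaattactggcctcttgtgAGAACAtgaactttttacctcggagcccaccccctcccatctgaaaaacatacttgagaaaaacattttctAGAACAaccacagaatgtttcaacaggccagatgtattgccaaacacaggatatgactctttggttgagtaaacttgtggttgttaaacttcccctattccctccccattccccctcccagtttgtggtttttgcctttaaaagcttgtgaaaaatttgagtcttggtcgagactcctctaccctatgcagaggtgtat
RLTR6B_Mm: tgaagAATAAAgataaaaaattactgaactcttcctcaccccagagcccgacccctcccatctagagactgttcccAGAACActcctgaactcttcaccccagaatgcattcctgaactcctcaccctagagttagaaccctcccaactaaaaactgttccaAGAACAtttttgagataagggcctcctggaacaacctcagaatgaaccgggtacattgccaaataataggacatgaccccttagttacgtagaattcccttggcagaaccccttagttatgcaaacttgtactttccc

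Over their aligned parts, the printed RLTR6_Mm locus (597 bases in all) was 87.3% identical to the RLTR6B_Mm locus and 78.9% identical to the RLTR6C_Mm locus. AGAACA began at positions 31 and 160, with its reverse complement at 79, in RLTR6_Mm, at positions 31 and 102 in RLTR6C_Mm, and at positions 77 and 163 in RLTR6B_Mm. Motifs were searched on both strands of all LTR loci of 400 to 700 bases. AGAACA was found in 97.1% of 209 RLTR6_Mm, 99.5% of 609 RLTR6B_Mm and 92.4% of 79 RLTR6C_Mm loci, and in 38.9% of 139113 other LTR loci of that length. TATATAAG, letters that hold a TATA box, was found in 81.8%, 97.0% and 0% of the 3 species and in 3.76% of the others. AGGTCA, the half-site of many nuclear receptors, was found in 1.44%, 1.15% and 6.33%, below its share of 28.5% in the others. TGANTCA, the AP-1 site, was found in 0% of each against 20.2%. These matches describe letters, not binding. In the printed RLTR6_Mm and RLTR6B_Mm loci the marked AATAAA began at positions 200 and 6, before TATATAAG at 309 and 330. In the RLTR6C_Mm locus AATAAA was found on the other strand only. Whether any of these acts as a polyadenylation signal was not tested.

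RLTR6_Mm and RLTR6C_Mm LTRs went with different primer binding sites, while RLTR6B_Mm LTRs went with both. Sites were found with at least 15 of 18 bases matching the 3′ end of a nuclear tRNA. The site of the element whose RLTR6_Mm LTR is printed above matched the glycine tRNA in 18 of 18 bases at chr14:32115883-32115900 (plus strand), the last bases of the locus as annotated, so the annotated LTR runs over it. A site for the proline tRNA, matching in 17 of 18 bases at chr7:34026808-34026825 (plus strand), lay in an RLTR6-int element between LTRs. Capitals mark the TGG that pairs with the CCA end of the tRNA.
Glycine site: TGGtgcattggccgggaa
Proline site: TGGgggctcgtccgtgat

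Of LTR loci of at least 300 bases, 82 of 209 RLTR6_Mm loci had the glycine site and 0 the proline site. RLTR6C_Mm had 26 proline sites and 1 glycine site in 91 loci, and RLTR6B_Mm had 91 glycine, 141 proline and 1 arginine site in 613. Neighbouring member loci were joined where they lay within 1000 bases on 1 strand. This gave 1436 elements, of which 326 had an internal part between LTRs, 809 an internal part alone, 45 an internal part with 1 LTR, 254 a single LTR without internal part and 2 a pair of LTRs alone. All 66 VL30 elements between RLTR6_Mm LTRs had the glycine site and spanned a median of 5221 bases. VL30 elements between RLTR6C_Mm LTRs had the proline site in 18 of 22, and RLTR6-int elements between LTRs had it in 135 of 227, with the glycine site in 80. The LTRs of 1 element were 99.8% identical at the median of 62 VL30 elements with RLTR6_Mm LTRs, 99.1% over 215 RLTR6-int elements and 98.4% over 19 VL30 elements with RLTR6C_Mm LTRs.

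Levels are CPM as the study scaled them, a count per library divided by a TMM-adjusted total of reads at LTR loci, so that the values of a library need not sum to a fixed total. They summed to 884850 to 1149612 in the F1 libraries and to 988786 to 1018211 in F3 P6, but to 564416 to 1383738 in F3 P4 and to 235832 to 1421887 in F3 P5, with the lowest of each in TBT library 5. Depth was 246520 to 8161548 reads at LTR loci per library. Several libraries stood apart in the share of those reads that lay outside genes, over all LTR loci. In F1 P6 this share was 0.999% to 1.82%, except 6.79% and 6.95% in TBT libraries 7 and 8. In F3 P4 it was 11.4% and 12.1% in TBT libraries 5 and 9, which had 833449 and 1187234 reads, and 2.05% to 5.10% in the others. In F3 P5 it was 23.5% and 27.9% in DMSO libraries 1 and 2, 31.1% in TBT library 5, which had 246520 reads, and 6.06% to 11.9% in the others. LTR loci in 9 germline genes summed to 9211 to 22206 CPM in the F1 P4 and P5 libraries, against 24.2 to 47.98 CPM in F1 P6. In F3 P4 they summed to 1280 and 2239 CPM in TBT libraries 5 and 9 and to 9297 to 18440 CPM in the others. In F3 P5 they summed to 2432 and 1972 CPM in DMSO libraries 1 and 2, to 142 CPM in TBT library 5 and to 7753 to 13355 CPM in the others, so the libraries that stood apart were also those with the least of this signal. In F3 P6 they summed to 14.4 to 242 CPM. The P4 and P5 tables were scaled apart from the P6 tables, and F1 apart from F3, so values across them are set side by side without a test. In sorted bulk cells, fewer cells of a type and less RNA per cell cannot be told apart.

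The loci in genes carried much of the signal of the germline populations. In F1 DMSO libraries, loci in introns summed to a mean of 857 CPM in P4, 833 CPM in P5 and 743 CPM in P6, and loci in exons to 46.8, 92.2 and 595 CPM. A single VL30 element in an intron of Tdrd9, a helicase gene of the piRNA pathway, held 30.7% of the whole level of VL30 and RLTR6 loci in F1 P4 and 15.2% in F1 P5. In F3 it held 10.9% in P4, behind 9030624G23Rik at 12.6%, and 5.74% in P5. Brip1os held 16.6% of that level in F1 P6 and 14.9% in F3 P6, through 6 RLTR6-int loci. Matn2, the gene of an extracellular matrix protein, held 6.90% and 7.05% in the same populations.

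In some genes loci of unlike length had nearly the same level. The 5 loci of the Tdrd9 element were 353 to 2284 bases long and had 68.4 to 68.7 CPM each in F1 P4. The 3 loci in Matn2, of 209, 2622 and 256 bases, had 54.2 to 54.6 CPM each in F1 P6. Among neighbouring loci at most 5000 bases apart with at least 100 reads each, the reads of the pair differed by no more than 10% in 33 of 92 pairs in genes (35.9%) and in 4 of 108 pairs outside genes (3.70%), so most pairs in genes differed by more. How this arose was not tested. The account of levels therefore rests on loci outside genes.

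Outside genes, VL30 and RLTR6 loci summed to 142 ± 21.6 CPM (SD, n = 5) in F1 P4, 539 ± 108 CPM (n = 4) in F1 P5 and 950 ± 144 CPM (n = 5) in F1 P6 DMSO libraries. The P4 libraries held 120.5, 133.9, 135.6, 139.8 and 177.9 CPM, and the P5 libraries 389.6, 528.8, 617.6 and 620.3 CPM. All P5 libraries lay above all P4 libraries. The P6 libraries held 810.6 to 1136 CPM. In F3 the DMSO means were 320 ± 107 CPM (n = 4) in P4, 1899 ± 828 CPM (n = 4) in P5 and 1118 ± 167 CPM (n = 4) in P6, and again no P5 library (825.5 to 2776 CPM) fell within the P4 range (193.8 to 441.7 CPM). Of all reads at LTR loci outside genes, VL30 and RLTR6 loci took 0.607% in F1 P4, 1.14% in F1 P5 and 7.45% in F1 P6 DMSO libraries, and 0.629%, 1.36% and 8.37% in F3.

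**Figure D1:**
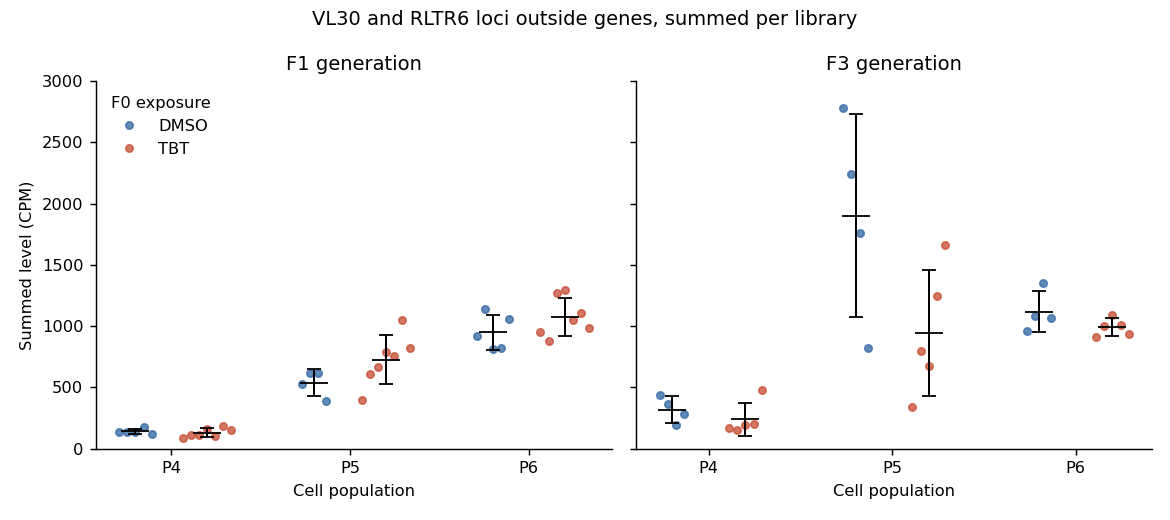
Summed level of the 2466 VL30 and RLTR6 loci outside genes in CPM (vertical axis) for P4, P5 and P6 of F1 and F3, with 1 point per library and black marks for the mean and SD of the DMSO and TBT libraries. The F3 P5 DMSO libraries spread from 825.5 to 2776 CPM, while the F1 P4 DMSO libraries lay between 120.5 and 177.9 CPM.

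The other ERV1 groups named RLTR1, MuRRS with MURVY and MuLV, and MMERGLN had another order. In F1 DMSO libraries, RLTR1 loci outside genes summed to 292 ± 30.4, 685 ± 97.7 and 102 ± 16.9 CPM in P4, P5 and P6. The MuRRS, MURVY and MuLV loci summed to 199 ± 25.4, 593 ± 132 and 149 ± 26.8 CPM, and MMERGLN loci to 108 ± 17.4, 258 ± 27.7 and 28.9 ± 10.2 CPM. All 4 groups had a higher mean in P5 than in P4. Set side by side, only VL30 and RLTR6 of these 4 groups had its highest F1 DMSO mean in P6. In F3 all 4 had their highest DMSO mean in P5, with 2823, 1745 and 801 CPM in the other groups and 1899 CPM for VL30 and RLTR6. For VL30 and RLTR6, F3 P5 DMSO libraries 1 and 2, which stood apart, held 2776 and 2239 CPM. Libraries 3 and 4 held 1757 and 825.5 CPM, against 964.1 to 1356 CPM in the F3 P6 DMSO libraries. In F3 P6 the other groups had means of 77.9, 181 and 30.7 CPM, below their F3 P4 means of 850, 406 and 212 CPM.

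**Figure D2:**
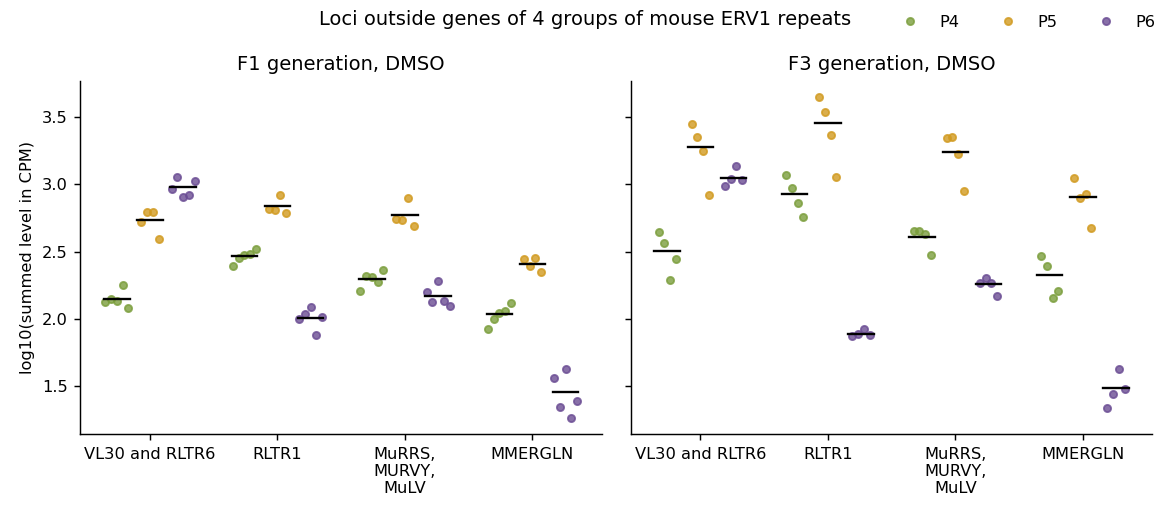
Summed level outside genes, as log10 of CPM on the vertical axis, of VL30 and RLTR6 and of 3 other groups of mouse ERV1 repeats in DMSO libraries, with 1 point per library and a bar at the mean. VL30 and RLTR6 loci lay near 950 CPM in F1 P6, where RLTR1 loci lay near 102 CPM.

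The 5 species differed in where they were high. MMVL30-int outside genes had DMSO means of 83.9, 333 and 819 CPM in F1 P4, P5 and P6 and 190, 1293 and 964 CPM in F3. In F3 P5, DMSO libraries 1 and 2, which stood apart, held 1847 and 1715 CPM. Libraries 3 and 4 held 1104 and 505 CPM, against 830 to 1161 CPM in the F3 P6 DMSO libraries. RLTR6-int had 37.9, 158 and 42.7 CPM in F1 and 73.7, 395 and 52.9 CPM in F3. RLTR6_Mm, the LTR of most VL30 elements with an LTR at each end, had 6.79, 17.96 and 73.5 CPM in F1. RLTR6B_Mm (7.28, 21.0 and 7.70 CPM) and RLTR6C_Mm (5.67, 9.43 and 7.40 CPM) had their highest F1 mean in P5.

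In P6 most of the level outside genes lay at VL30 elements between RLTR6_Mm LTRs, while in P4 and P5 internal parts without LTR held the larger share. The 52 VL30 elements between RLTR6_Mm LTRs outside genes had 28.8 ± 17.5 CPM in F1 P4, 119 ± 29.3 CPM in F1 P5 and 644 ± 101.2 CPM in F1 P6 DMSO libraries. These were 20.5%, 22.3% and 71.4% of the level of all VL30 and RLTR6 elements outside genes. In F3 they had 47.6 ± 44.5, 456.4 ± 198 and 784 ± 137 CPM, or 15.3%, 24.6% and 74.5%. The 9 VL30 elements outside genes between other or mixed LTRs, all of them with the glycine site, held a further 133 ± 28.1 CPM in F1 P6 and 138 ± 12.1 CPM in F3 P6.

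VL30 internal parts without LTR had their highest mean in P5 and their lowest in P6. The 151 such elements outside genes had 53.6 ± 11.6 CPM in F1 P4, 192 ± 47.5 CPM in F1 P5 and 28.5 ± 7.34 CPM in F1 P6, which were 38.1%, 36.0% and 3.15% of the level. In F3 they had 136 ± 55.8, 657 ± 427 and 34.4 ± 15.97 CPM. RLTR6-int alone, with 471 elements outside genes, had 25.6 ± 7.90, 102 ± 31.2 and 4.76 ± 2.21 CPM in F1, and 39.4 ± 21.4, 234 ± 71.0 and 2.16 ± 0.887 CPM in F3. RLTR6-int between LTRs had 9.98 ± 4.14, 47.9 ± 19.6 and 9.997 ± 3.37 CPM in F1. VL30 between RLTR6C_Mm LTRs, with the proline site, had 4.78, 21.9 and 11.6 CPM in F1 and 7.08, 136 and 12.4 CPM in F3, so P5 was the population with its highest mean in both generations.

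**Figure D3:**
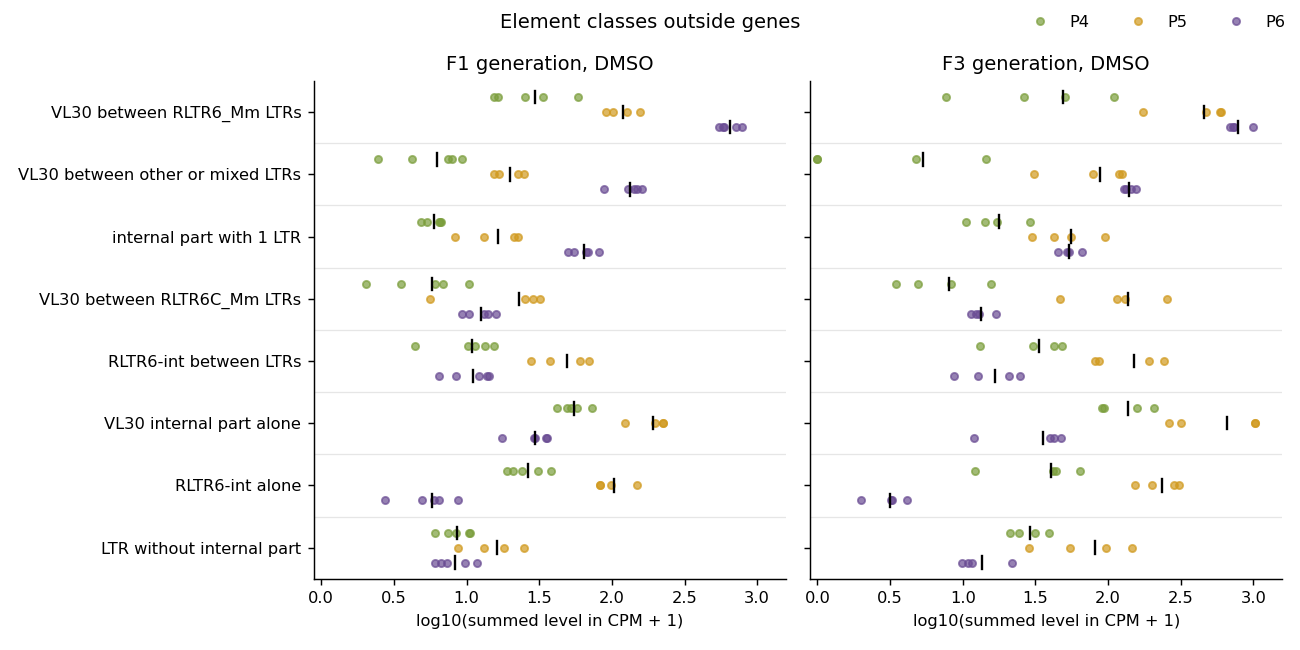
Summed level of 8 element classes outside genes in DMSO libraries of F1 and F3, as log10 of CPM + 1 on the horizontal axis, with 1 point per library, colours for P4, P5 and P6 and a bar at the mean. In F1 P6 the class between RLTR6_Mm LTRs lay between 545 and 785 CPM, and RLTR6-int alone lay between 1.73 and 7.80 CPM.

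The internal parts without LTR often lay beside LTRs of other families. Of 622 such elements outside genes, 77 lay within 100 bases of an RLTR1 repeat, 162 of a MURVY repeat and 179 of another LTR repeat, and 204 of none. The 77 beside RLTR1 had 37.9, 144 and 25.2 CPM in F1 P4, P5 and P6 DMSO libraries. The 162 beside MURVY had 12.4, 46.3 and 1.34 CPM, and the 204 beside none had 6.64, 35.8 and 3.62 CPM. For each of these sets P5 was the highest F1 mean. In F3 the set beside RLTR1 had 110, 500 and 31.5 CPM.

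In VL30 elements between RLTR6_Mm LTRs the internal part made up 76.1% of the annotated bases. Over 63049 reads of P6 at those elements, 3.199% fell in the 5′ LTR, 92.2% in the internal part and 4.57% in the 3′ LTR. In P5 (17937 reads) these shares were 6.07%, 87.8% and 6.16%, and in P4 (2060 reads) 10.97%, 78.6% and 10.4%, so the internal share was close to its share of the bases in P4 and above it in P5 and P6. LTRs of one element are close to identical, and reads that match both ends are placed by rules not given in the sources used here, so the LTR shares are uncertain. Across 49 VL30 elements with RLTR6_Mm LTRs outside genes, Spearman's rho of LTR pair identity with the DMSO level was 0.24 to 0.35 over the 6 populations. It was 0.15 to 0.38 across 188 RLTR6-int elements between LTRs. Across 13 VL30 elements with RLTR6C_Mm LTRs it ran from −0.52 in F1 P4 to 0.32 in F1 P6. The elements share libraries, and this is a description only.

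Few elements carried most of the level in P6. The 10 highest elements held 51.6% of the level outside genes in F1 P6 and 51.2% in F3 P6 DMSO libraries, against 23.6% in F1 P5 and 32.4% in F1 P4. Elements at or above 1 CPM numbered 72.6 per library on average in F1 P6, 111 in F1 P5 and 38.4 in F1 P4.

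The highest element was chr14:32115304-32120545 (plus strand, 5242 bases), whose 5′ LTR is printed above and whose LTRs were 100% identical. The F1 P6 DMSO libraries held 86.0, 108, 64.5, 52.0 and 116 CPM, and the TBT libraries 72.3 to 151 CPM with a median of 85.5 CPM. In F3 P6 the DMSO libraries held 94.2, 103, 211 and 57.1 CPM and the TBT libraries 86.4, 158, 162, 114 and 72.4 CPM. DMSO and TBT overlapped in both generations. Its mean over all F1 P4 libraries was 1.90 CPM and over all F1 P5 libraries 4.69 CPM, and it reached 25.7 and 36.2 CPM in F3 P5 DMSO libraries 2 and 3 against 5.91 and 3.46 CPM in libraries 1 and 4.

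The element at chr11:86811742-86816395 (minus strand, 4654 bases) lay between an RLTR6C_Mm and an RLTR6_Mm LTR and had the glycine site. Its means were 1.18, 6.10 and 63.1 CPM in F1 P4, P5 and P6 and 0.588, 8.10 and 65.7 CPM in F3. The F3 P6 DMSO libraries held 77.3, 92.1, 57.3 and 73.3 CPM and the TBT libraries 62.7, 64.9, 58.4, 43.2 and 61.9 CPM, and the groups overlapped. The element at chr4:12133153-12138153 (minus strand, 5001 bases), with identical RLTR6_Mm LTRs, had 2.82, 12.9 and 45.6 CPM in F1 and 4.57, 36.0 and 39.0 CPM in F3. It was the least confined to P6 of these 3 elements, with 83.7, 51.01, 13 and 23.3 CPM in the F3 P5 DMSO libraries.

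Per kilobase, the 5 highest loci of at least 300 bases outside genes fell into 2 sets. The MMVL30-int locus chr2:17097004-17097318, an internal part alone, had 34.8 CPM per kb in F1 P5 and 105 CPM per kb in F3 P5, against 0.0898 and 0 CPM per kb in P6. The MMVL30-int locus chr12:45196039-45196581 (9.68 in F1 P5 and 0.185 in F1 P6) and the RLTR6-int locus chr9:4210089-4210840 (10.9 and 0.0576) had the same order in CPM per kb. The MMVL30-int locus chr14:32117142-32119968, inside the highest element, had 1.21 CPM per kb in F1 P5 and 23.8 in F1 P6. The MMVL30-int locus chr17:21474543-21475229, in an element with 1 LTR, had 2.39 and 17.5 CPM per kb.

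P5 and P4, the germline fractions, were compared locus by locus with limma over all tested LTR loci. In F1 DMSO libraries 32 of 152 tested VL30 and RLTR6 loci were higher in P5 and 2 lower at a false discovery rate (FDR) under 0.05, where 6.47% of all tested LTR loci were higher and 5.97% lower. In F1 TBT libraries 114 of 198 were higher and 16 lower, where 14.6% of all tested loci were higher and 14.2% lower. The median log2 difference of the tested members was 0.78 in DMSO and 1.61 in TBT libraries, and that of all tested loci was −0.10 and −0.09. With the same total per library in place of the deposited scaling, 36 of 160 members were higher and 0 lower in DMSO libraries (7.48% and 2.58% of all loci), and 127 were higher and 5 lower in TBT libraries (17.7% and 6.65%). A locus was tested on its mean over both populations, so it could enter through its P5 reads. Among loci with a mean of at least 20 read values, in place of 5, the excess of higher over lower members was small or absent. There 6 of 41 members were higher and 3 lower in DMSO libraries (7.69% and 18.8% of all loci), and 15 of 51 were higher and 15 lower in TBT libraries (10.7% and 33.7%). Their median log2 difference was −0.25 in DMSO and 0.0099 in TBT libraries, and that of all such loci −0.29 and −0.33. In the fit with the first filter, MMVL30-int rose at 20 and fell at 0 of 70 tested loci in DMSO libraries, and rose at 80 and fell at 5 of 107 in TBT libraries. RLTR6-int rose at 9 and fell at 1 of 48 in DMSO, and rose at 27 and fell at 4 of 55 in TBT libraries. RLTR6_Mm rose at 0 and fell at 1 of 16, and rose at 4 and fell at 3 of 16. RLTR6B_Mm rose at 1 and fell at 0 of 14, and rose at 2 and fell at 2 of 15, and RLTR6C_Mm rose at 2 and fell at 0 of 4, and rose at 1 and fell at 2 of 5.

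The higher loci lay mostly outside genes, and the lower loci in introns. In F1 TBT libraries 74 of 89 tested members outside genes, 24 of 89 in introns and 16 of 20 in exons were higher in P5, and all 16 lower loci were intronic. Those 16 included the 5 loci in Tdrd9, 4 in 9030624G23Rik and 1 in Tdrd1, a piRNA pathway gene. LTR loci outside genes were higher in P5 as a whole. In a fit of loci outside genes only, 74 of 89 members were higher in F1 TBT libraries against 40.3% of all such loci, and 6 of 56 in F1 DMSO libraries against 5.08%. The share of LTR reads outside genes was 1.83% to 2.51% in F1 P4 and 3.84% to 7.34% in F1 P5 libraries, and its part in these counts was not tested.

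**Figure D4:**
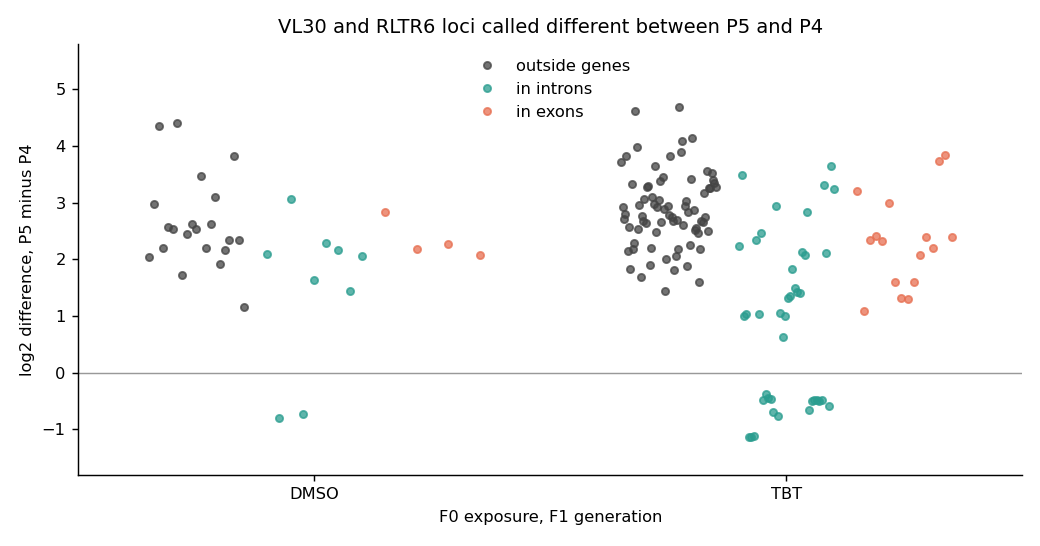
Log2 difference between P5 and P4 (vertical axis, P5 minus P4) at each VL30 or RLTR6 locus called different in the F1 DMSO or TBT libraries, with 1 point per locus and colours for loci outside genes, in introns and in exons. All 74 called TBT loci outside genes lay above 0, and all 16 lower ones were in introns.

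The largest increase in F1 DMSO libraries was at the RLTR6-int locus chr11:9882686-9890196, an internal part alone of 7511 bases. The P4 libraries held 0.516, 0, 0, 0 and 0.915 CPM and the P5 libraries 7.89, 10.04, 17.4 and 3.53 CPM. The groups did not overlap (log2 difference 4.41, SE 0.60, limma adjusted p = 5.45e-05). The RLTR6-int loci chr8:4428592-4431767 (4.35, SE 0.78) and chr10:129006148-129008033 (3.82, SE 0.80) followed, with limma adjusted p = 0.000988 and 0.00318, and both were at 0 in all but 1 P4 library. Of the lower loci, RLTR6-int chr2:30190906-30190962 in an intron of Kyat1 held 7.998 to 12.9 CPM in P4 and 4.90 to 5.89 CPM in P5 (log2 difference −0.80, SE 0.23, limma adjusted p = 0.0226). RLTR6_Mm chr19:56836531-56836602 in an intron of Tdrd1 differed by −0.73 (SE 0.22, limma adjusted p = 0.0343). Both lower calls were lost with the same total per library (adjusted p = 0.0596 and 0.0802), by the quasi-likelihood test (0.0527 and 0.0794), and without P5 library 43-5 (0.0675 and 0.0533) or P4 library 44-1 (0.0630 and 0.0536), that in Kyat1 also without a filter (0.0743), and that in Tdrd1 also without P5 library 43-4 or 44-1 or P4 library 43-5 or 48-4.

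In F3 DMSO libraries 2 of 365 tested members were higher in P5 and 0 lower, where 0.0638% of all loci were higher and 0.0809% lower. The MMVL30-int locus chr19:4061915-4065815, in an element between RLTR6_Mm LTRs, held 0.565, 0, 0 and 0 CPM in P4 and 60.6, 49.7, 22.96 and 13.4 CPM in P5 (log2 difference 6.48, SE 1.05, limma adjusted p = 0.0193). The MMVL30-int locus chr2:129948255-129948625, in an exon of Gm28196, was at 0 in all 4 P4 libraries and held 18.7, 49.7, 9.27 and 13.2 CPM in P5 (6.14, SE 1.101, limma adjusted p = 0.0193). The groups did not overlap at either locus. Same-numbered P4 and P5 libraries of F3 DMSO deviated together in all 4 pairs, but number 2 correlated more with another number (0.30) than with its own (0.25). With the number as replicate block 14 members were higher and 0 lower, where 0.248% of all loci were higher and 0.379% lower. Without the block, both calls were lost without P5 library 1 (adjusted p = 0.194), without P5 library 2 (0.116) and without P4 library 3 (0.0533), and that in Gm28196 also without P4 library 1 (0.0515), and edgeR's quasi-likelihood test on the recovered reads called neither. Both were also lost with a pseudocount of 0.25 read values (limma adjusted p = 0.0593 and 0.0668) and with a mean of at least 20 read values (0.115 and 0.157). P5 libraries 1 and 2 are those that stood apart, with little signal in germline genes, whose part in these calls was not tested, and without both no member was called (limma adjusted p = 0.0685 and 0.0686 at these loci), whereas without P5 library 3 limma called 15 members and 2.6% of all loci. In F3 TBT libraries 0 of 200 members were called with limma, with 49 at an unadjusted p under 0.05, all higher in P5, where 3.52% of all loci were, while the quasi-likelihood test called 32, all higher, with 2.84% of all loci. Without P5 library 5 and P4 libraries 5 and 9 limma called 18, with 1.32% of all loci higher.

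TBT and DMSO libraries were then compared within each population. With limma no VL30 or RLTR6 locus was called in F1 P4 (89 tested), F1 P5 (324), F1 P6 (177), F3 P4 (131) or F3 P5 (383), and 2 of 225 were called in F3 P6, both lower in TBT. Of all tested LTR loci, 0.0106% were called higher in F1 P5, 0.00341% higher in F1 P6, and 0.02% higher and 0.0143% lower in F3 P6. Loci at an unadjusted p under 0.05 numbered 15, 50, 9, 8, 17 and 41 in this order, and such loci made up 7.09%, 6.89%, 3.68%, 1.65%, 1.01% and 7.96% of all tested LTR loci. The quasi-likelihood test called 0 in the first 5 populations and 4 in F3 P6, where it called 0.0582% of all loci. A likelihood ratio test in edgeR, the test named in the study's methods, called 0, 7, 1, 0, 12 and 8 members, and 0.0982%, 0.32%, 0.05%, 0.00463%, 3.13% and 0.32% of all tested loci. No total of the 5 species was called in any population by limma, the lowest adjusted p being 0.431 for MMVL30-int in F3 P6 (log2 difference −0.19, SE 0.074), and the edgeR tests called none either. RLTR6C_Mm in F1 P4 had a log2 difference of 0.48 (SE 0.16, limma adjusted p = 0.439).

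In F3 P6 the called MMVL30-int locus chr4:149434582-149437410 (minus strand), in an element outside genes between RLTR6_Mm LTRs, held 37.7, 33.8, 39.4 and 41.0 CPM in DMSO and 20.6, 13.4, 24.05, 23.2 and 20.2 CPM in TBT libraries. Every TBT library lay below every DMSO library (log2 difference −0.92, SE 0.14, limma adjusted p = 0.0111). In F1 P6 the same locus held 30.4 to 49.2 CPM in DMSO and 23.99 to 47.01 CPM in TBT libraries, which overlapped.

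The called MMVL30-int locus chr13:55185025-55188682 (plus strand), also outside genes between RLTR6_Mm LTRs, held 66.2, 69.6, 120 and 88.8 CPM in F3 DMSO and 59.9, 20.5, 44.2, 36.6 and 43.9 CPM in F3 TBT libraries. These groups did not overlap either (log2 difference −1.11, SE 0.20, limma adjusted p = 0.0421). In F1 P6 the order was the other one, with 27.5, 30.9, 16.6, 13.3 and 26.1 CPM in DMSO and 20.05 to 60.5 CPM, median 53.3, in TBT libraries (0.98, SE 0.23, limma adjusted p = 0.907). That difference passed without TBT library 11 (limma adjusted p = 0.0404), without a filter (1.1e-05) and by the likelihood ratio test (0.0066). The lowest TBT library lay within the DMSO range, and the difference between the generations was not tested. In F3 the call was lost with a pseudocount of 0.25 read values in place of 1 (adjusted p = 0.0796) and without any 1 of TBT libraries 6 to 9 or DMSO libraries 3 and 4 (0.0678 to 0.124), and in a fit of loci outside genes only both loci lost their call (adjusted p = 0.0900 and 0.147). LTR loci in germline genes summed to 24.2, 14.4, 242 and 208 CPM in F3 P6 DMSO libraries 1 to 4 and to 17.4 to 22.8 CPM in the TBT libraries, and their part in these calls was not tested.

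Named loci that were higher in F3 P6 TBT libraries did not pass the threshold with limma, though the likelihood ratio test called the first given here. The MMVL30-int locus chr4:12133727-12137565, the internal part of the element on chromosome 4 described above, held 27.0, 23.2, 29.8 and 34.5 CPM in DMSO and 41.4, 44.8, 49.0, 47.2 and 34.6 CPM in TBT libraries (0.60, SE 0.13, limma adjusted p = 0.111). RLTR6B_Mm chr9:122855107-122855647, the LTR printed above from an exon of Zfp445, held 4.73 to 7.73 CPM in DMSO and 9.62 to 11.7 CPM in TBT libraries (0.69, SE 0.18, limma adjusted p = 0.268). Neither locus had overlapping groups. Over all loci outside genes, F3 P6 summed to 1118 ± 167 CPM (n = 4) in DMSO and 991 ± 72.4 CPM (n = 5) in TBT libraries, and the ranges of 964.1 to 1356 and 912.4 to 1095 CPM overlapped.

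**Figure D5:**
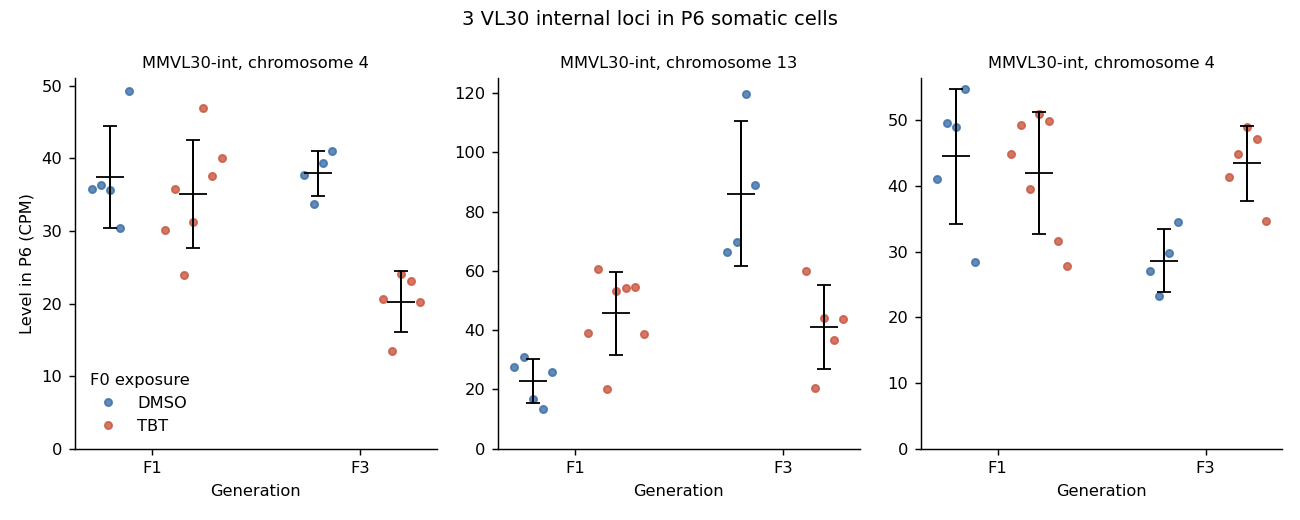
Level in CPM (vertical axis, from 0) of the MMVL30-int loci from base 149434582 of chromosome 4 (left), base 55185025 of chromosome 13 (middle) and base 12133727 of chromosome 4 (right) in P6 of F1 and F3, with 1 point per library and black marks for the mean and SD. At the left locus the F3 TBT libraries lay between 13.4 and 24.05 CPM, below the F3 DMSO libraries, and the F1 libraries overlapped.

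In F1 P5 members leaned upward in TBT libraries without a limma call. Of the 50 loci at an unadjusted p under 0.05, 47 were higher, where 4.64% of all tested loci were, and the lowest adjusted p was 0.159. The median log2 difference was 0.28 over the tested members and 0.03 over all loci, but in a fit of loci outside genes only it was 0.36 over members and 0.37 over all. RLTR6-int chr11:53554085-53556197 held 8.13, 7.70, 0.689 and 2.69 CPM in DMSO and 10.2 to 18.4 CPM, median 12.7, in TBT libraries, without overlap (1.92, SE 0.41, limma adjusted p = 0.162). RLTR6-int chr7:29731615-29734616 held 1.43, 1.40, 3.10 and 0.673 CPM in DMSO and 2.71 to 7.16 CPM, median 4.94, in TBT libraries, which overlapped (1.65, SE 0.35, limma adjusted p = 0.159). Both loci passed without a filter and by the likelihood ratio test. Outside genes the summed level was 539 ± 108 CPM (n = 4) in DMSO and 727 ± 202 CPM (n = 7) in TBT libraries, whose range of 395 to 1048 CPM overlapped the DMSO range. The F1 germline library numbers have 2 parts, and the labels do not say what the first stands for. The TBT libraries 45-3, 45-4 and 45-5 held 395, 611.8 and 666.1 CPM, and the 4 whose number begins with 47 held 757 to 1048 CPM, above all DMSO libraries. With the first number as a random effect 0 members were called and 47 had an unadjusted p under 0.05, 44 of them higher, against 6.22% of all loci. The lower named loci were MMVL30-int chr1:53386337-53386823 (−1.35, SE 0.49) and chr13:105290183-105290974 in an intron of Rnf180 (−1.54, SE 0.70), with limma adjusted p = 0.565 and 0.693.

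In F1 P4 the named loci lay in introns. The RLTR6C_Mm LTR printed above from Tdrd9 held 36.6, 67.8, 56.4, 45.6 and 65.9 CPM in DMSO and 51.5 to 119 CPM, median 79.5, in TBT libraries, which overlapped (0.52, SE 0.17, limma adjusted p = 0.617). The MMVL30-int locus chr12:112020537-112020889, further along that element, differed by 0.52 too (SE 0.17, limma adjusted p = 0.617). A pair of MMVL30-int loci in an intron of Cfap53, a gene of cilia, was lower by −1.30 (SE 0.45) and −1.12 (SE 0.43), with limma adjusted p = 0.654 and 0.681. Outside genes F1 P4 summed to 142 ± 21.6 CPM in DMSO and 133 ± 34.8 CPM (n = 7) in TBT libraries.

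In F1 P6 the level outside genes was 950 ± 144 CPM in DMSO and 1078 ± 157 CPM (n = 7) in TBT libraries. TBT libraries 7 and 8, which stood apart, held 1270 and 1293 CPM, and the other TBT libraries 881.1 to 1105 CPM. RLTR6-int alone had 4.76 ± 2.21 CPM in DMSO libraries, and in TBT libraries a median of 10.1 and a highest value of 81.1 CPM. The class between RLTR6_Mm LTRs had 644 ± 101.2 CPM in DMSO and 698 ± 49.0 CPM in TBT libraries. Beside the chr13 locus, the higher named locus was the RLTR6_Mm LTR from base 32115304 of chromosome 14 (1.27, SE 0.36), and the lower ones were RLTR6-int in an exon of Cep57l1 (−1.13, SE 0.41) and in an intron of Brip1os (−1.03, SE 0.38), with limma adjusted p = 0.999 for each.

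In F3 P4 and P5 the libraries that stood apart moved the summed levels. Outside genes F3 P4 held 193.8, 281.1, 364.2 and 441.7 CPM in DMSO and 156.2, 167.3, 194.2, 202.6 and 477.6 CPM in TBT libraries, the last being library 9 and the second library 5. Without these 2 libraries, which stood apart, the TBT libraries held 156.2 to 202.6 CPM. F3 P5 held 2776, 2239, 1757 and 825.5 CPM in DMSO libraries 1 to 4 and 337.7, 797.9, 675.0, 1250 and 1661 CPM in TBT libraries 5 to 9. The groups overlapped in both populations. As a share of reads at LTR loci, the F3 P5 values were 0.279%, 0.325%, 0.156% and 0.0794% in DMSO libraries and 0.143%, 0.0681%, 0.0672%, 0.0879% and 0.137% in TBT libraries, so that TBT library 5 was the lowest in CPM and the highest of the TBT libraries in share. In F3 P4 the shares were 0.0319%, 0.027%, 0.0161% and 0.022% in DMSO libraries 1 to 4 and 0.0296%, 0.0131%, 0.0149%, 0.0158% and 0.0592% in TBT libraries 5 to 9. In both populations the part of the signal in germline genes in these differences was not tested. The log2 difference of the summed level of all members was −0.93 in F3 P5 and became −0.18 without DMSO libraries 1 and 2 and TBT library 5, and in F3 P4 it was −0.32 and became −0.03 without TBT libraries 5 and 9.

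In F3 P5 the tested members leaned lower in TBT libraries without a limma call. Their median log2 difference was −0.74, against 0.15 over all loci, and 28.5% of members and 55.2% of all loci lay above 0. Of the 17 loci at an unadjusted p under 0.05, 16 were lower, where 0.519% of all tested loci were. Without DMSO libraries 1 and 2 and TBT library 5 the medians were −0.13 and −0.03, and in a fit of loci outside genes only −1.07 and −0.52. The class between RLTR6_Mm LTRs had 456.4 ± 198 CPM (171.7 to 595.6) in DMSO and 183 ± 60.0 CPM (127.2 to 269.8) in TBT libraries, which overlapped. RLTR6-int chr7:35566293-35570690 held 19.7, 38.6, 11.9 and 17.5 CPM in DMSO and 0, 0.982, 3.85, 1.60 and 0 CPM in TBT libraries, without overlap, with a log2 difference of −4.39 (SE 1.45) that did not pass with limma (limma adjusted p = 1). The likelihood ratio test called this locus. The other named loci of F3 P5 were RLTR6-int chr11:53556215-53556954 (3.14), RLTR6-int chr9:12134372-12138989 (2.38) and MMVL30-int chr17:35478764-35480260 (−3.60), none of them called. In F3 P4 the MMVL30-int locus chr2:129948255-129948625 in an exon of Gm28196 was at 0 in all 4 DMSO libraries and held 4.74, 1.16, 2.35, 5.59 and 6.11 CPM in TBT libraries (limma adjusted p = 0.870). The neighbouring MMVL30-int locus (3.24), the RLTR6-int locus chr2:155028156-155028960 in an intron of the agouti gene a (−2.92) and MMVL30-int chr1:87075996-87078953 (−2.95) had the same adjusted p.

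Whether the TBT difference itself differed between P5 and P4 was tested in each generation. With limma 0 of 174 members passed in F1, with 20 at an unadjusted p under 0.05 against 4.32% of all loci, of which 0.000986% passed, and 0 of 286 passed in F3, with 10 against 1.39% of all loci.

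In the MBD data of P6, 185 windows of 100 bases in F1 and 227 in F3 overlapped VL30 or RLTR6 loci, at 148 and 164 loci. RLTR6-int held 122 and 141 of these windows, MMVL30-int 33 and 38, and RLTR6_Mm 9 and 9. Their counts were 0.147% to 0.188% of the total per library in F1 and 0.190% to 0.302% in F3. No window at a member was called by edgeR's quasi-likelihood test between TBT and DMSO (59 tested in F1, lowest FDR 0.937, and 114 in F3, lowest FDR 0.916), and 6 and 5 windows had an unadjusted p under 0.05, against 5.01% and 5.19% of all tested windows. DESeq2 called none either, with 3 and 2 at an unadjusted p under 0.05. The log2 difference was above 0 in 39 of 59 tested member windows in F1 and in 84 of 114 in F3, where it was above 0 in 17346 of 34559 and 24285 of 47563 of all windows. Its median was 0.11 and 0.13 over member windows and 0.0018 and 0.0056 over all. With a mean of at least 20 counts it was above 0 in 17 of 32 member windows in F1 and in 42 of 56 in F3. Without DMSO library 4 it was above 0 in 68 of 118 in F3. The windows share the same libraries, so these counts are a description only. Of all tested windows, 0.00579% were called higher and 0.026% lower in F1, and none in F3.

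MBD signal was highest at member windows with 3 or more CpG sites. In F1 DMSO libraries it was 9.87 CPM in windows without CpG, 10.8 with 1, 14.6 with 2 and 28.8 with 3 or more, where all other windows had 8.66, 14.0, 20.3 and 26.03 CPM. The TBT libraries had 11.1, 10.6, 15.1 and 30.5 CPM. In F3 DMSO libraries member windows had 6.81, 10.5, 13.7 and 24.04 CPM and TBT libraries 6.75, 10.7, 14.7 and 26.6 CPM. Windows without CpG made up 21.1% of the member windows in F1 and 18.9% in F3.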

How the data were processed

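Members and gene lists were chosen with earlier results of these data known. Per the labels and the study's methods, the authors trimmed reads with Trim Galore, aligned them to mm10 (GRCm38) with STAR and counted reads at LTR loci with a modified ERVmap. The deposited signal of a locus is its count scaled by edgeR's TMM to CPM (versions not given in the sources used here). All values were whole multiples of 1 read value per library (100% within 0.1%), so whole reads were recovered. The MBD data are deposited counts of reads per 100-base window, and all deposited windows entered without selection for LTR repeats.

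From there, log2(value + 1 read value) was fitted with limma 3.58.1 (trended) in R 4.3.3 over all loci with a mean of at least 5 read values, TBT against DMSO in each population and P5 against P4 in each exposure, with Benjamini-Hochberg adjustment over all tested loci and an FDR threshold of 0.05. The fold is on this scale and understates changes of low loci. MBD counts and, as alternatives, recovered reads were tested with edgeR 4.0.16, and MBD counts also with DESeq2 1.42.0. The loci named were, for TBT, the 2 higher and 2 lower loci of smallest p per population and any called up to 5, for P5 against P4 the 3 largest called each way in DMSO, the 5 highest per kb outside genes and the 3 highest elements between LTRs. Gene context came from GENCODE vM21, sequence from RefSeq GRCm38.p6, and primer binding sites from 124 distinct ends of 423 nuclear tRNA genes. The identity of the LTRs of 1 element came from BLAST 2.17.0. Identity between the printed LTRs came from global alignment with Biopython 1.88. MBD totals were 701493 to 1913353 counts per library in F1 and 1105120 to 1556376 in F3. The fits were tested on simulated counts. The labels give P4 and P5 libraries the same numbers and do not say that these share an animal. The deviations of same-numbered libraries from their group means correlated over 0.1 in all pairs in F3 DMSO alone (0.25 to 0.43). Even there number 2 correlated more with another number (0.30), so the numbers are not shown to mark pairs. Alternatives changed the pseudocount, filter, scaling, locus set, test, libraries and pairing.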

Additional observations from a re-analysis of the deposited data

Results flagged for a closer look

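Of 101 groups of values checked, 11 had 1 library far from the rest of its group, and chance alone flags about 1 in 20 groups. The summed level of all VL30 and RLTR6 loci was 910.0 CPM in F1 P4 DMSO library 43-4 (others 1055 to 1107 CPM), and the level outside genes was 477.6 CPM in F3 P4 TBT library 9 (others 156.2 to 202.6 CPM), a library of low depth that stood apart. The RLTR6_Mm total was 158.1 CPM in F1 P5 DMSO library 44-1 (others 150.3 to 151.3 CPM) and 220.8 CPM in F1 P5 TBT library 47-5. The RLTR6C_Mm total was 124.4 CPM in F1 P5 DMSO library 48-4 (others 91.3 to 95.0 CPM), 23.99 CPM in F1 P6 TBT library 7, which stood apart in its reads outside genes, and 78.44 CPM in F3 P5 DMSO library 2, which did too. The RLTR6-int total was 763.6 CPM in F3 P6 DMSO library 1. At 3 named loci a single P4 DMSO library had a read while the others were at 0, with 0.9241 CPM at RLTR6-int chr8:4428592-4431767 and 0.462 CPM at RLTR6-int chr10:129006148-129008033, both in F1 library 44-1, and 0.5652 CPM at MMVL30-int chr19:4061915-4065815 in F3 library 1.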

How the results depend on the processing

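Counts below are VL30 and RLTR6 loci at an FDR under 0.05, with the share of all tested loci called in parentheses where the report does not give it. For TBT in F1 P5 there were 0, and 19 without a filter (0.202%), 7 by the likelihood ratio test and 0 to 1 leaving out 1 library (1 without DMSO library 43-4). In F1 P6 there were 0, and 1 without a filter (0.00585%), 1 by the likelihood ratio test and 0 to 1 leaving out 1 library (1 without TBT library 11). In F3 P5 there were 0 and 12 by the likelihood ratio test. In F3 P6 the 2 calls became 1 with a pseudocount of 0.25 (0.0229%), 0 with loci outside genes only, 4 by the quasi-likelihood and 8 by the likelihood ratio test, and 1 to 3 leaving out 1 library (1 without DMSO library 3 or any of TBT libraries 6 to 9).

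For P5 against P4 in F1 DMSO, 34 calls became 18 with a pseudocount of 0.25 (10.9%), 58 without a filter (3.18%), 9 with a mean of at least 20 read values, 6 with loci outside genes only, 52 with the number as replicate block (16.6%) and 19 to 36 leaving out 1 library (19 without P5 library 43-4 or 43-5). In F1 TBT, 130 became 264 without a filter (6.8%), 30 at 20 read values, 74 outside genes only, 144 with the block (37.8%) and 112 to 137 leaving out 1 library. In F3 DMSO, 2 became 0 with a pseudocount of 0.25, 8 with 4 (0.266%), 14 without a filter (0.382%), 0 at 20 read values, 6 with the same total per library (0.197%), 6 outside genes only (0.544%), 14 with the block, 0 without P5 libraries 1 and 2, 0 by the quasi-likelihood test and 0 to 15 leaving out 1 library (0 without P5 library 1 or 2 or P4 library 3, 1 without P4 library 1, 3 without P4 library 4, 5 without P4 library 2, 6 without P5 library 4 and 15 without P5 library 3). In F3 TBT, 0 became 32 by the quasi-likelihood test, 18 without P5 library 5 and P4 libraries 5 and 9, 0 with the block and 0 to 3 leaving out 1 library (3 without P5 library 5). Outside F3 DMSO, same-numbered P4 and P5 libraries correlated at −0.0118 to 0.27 in F1 DMSO, 0.0882 to 0.50 in F1 TBT and −0.20 to 0.58 in F3 TBT, not over 0.1 in every pair, so the block is given there as an alternative only. The block changed no named call.

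The summed level turned to −0.12 (log2) in F1 P4 with loci outside genes only and to 0.0893 in F3 P4 with the same total per library. Species totals, none of them called, turned as follows. In F1 P4 outside genes only, MMVL30-int was −0.24, RLTR6_Mm −0.74 and RLTR6C_Mm −0.34, and RLTR6-int was −0.0216 with the same total, −0.0189 and −0.0184 by the quasi-likelihood and likelihood ratio tests and −0.022 to 0.11 leaving out 1 library. In F1 P5 RLTR6B_Mm was −0.019 with the same total, −0.0236 and −0.0235 by these tests and −0.0152 to 0.0332 leaving out 1 library. In F1 P6 RLTR6C_Mm was −0.10 without TBT libraries 7 and 8 and ranged from −0.0763 to 0.16 leaving out 1. In F3 P4 MMVL30-int was 0.047 and RLTR6-int 0.25 with the same total, and by these tests MMVL30-int was 0.0511 and 0.0494 and RLTR6-int 0.30. There RLTR6_Mm was 0.25 outside genes only and 0.12 without TBT libraries 5 and 9 (the libraries of lowest depth), RLTR6B_Mm was 0.0645 without these, and RLTR6C_Mm was −0.28 outside genes only and ranged from −0.15 to 1.096. RLTR6B_Mm in F3 P5 was 0.0581 without DMSO libraries 1 and 2 and TBT library 5, and in F3 P6 outside genes only RLTR6-int was 0.026 and RLTR6C_Mm 0.55. The cause was not tested. Beside these, 375 of the counts and summed levels and 1057 values of single loci and species kept their direction and side of the threshold, 37 values of single loci lost their call and 9 gained one. Those 9 were RLTR6-int chr7:29731615 and chr11:53554085 in F1 P5 and MMVL30-int chr13:55185025 in F1 P6 without a filter and by the likelihood ratio test, the last also without TBT library 11, and by the likelihood ratio test RLTR6-int chr7:35566293 in F3 P5 and MMVL30-int chr4:12133727 in F3 P6. The recorded reads set what low loci can show: 2 libraries of F3 P4 had 833449 and 1187234 reads, and 1 of F3 P5 had 246520.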
